A study of Mus musculus with 6 samples.

Results

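Expression of 10 genes of the p53 pathway and of cell cycle arrest was examined in the liver of aged *Sirt7* knockout (KO) and wild-type (WT) mice. The genes were taken by name for their roles. They are *Trp53*, which encodes the transcription factor p53, and *Mdm2*, which encodes the ubiquitin ligase that removes it. *Cdkn1a*, *Cdkn1b* and *Cdkn2c* encode the cyclin-dependent kinase (CDK) inhibitors p21, p27 and p18, and *Ccnd1* encodes cyclin D1. *Gadd45a* and *Gadd45b* encode stress-induced proteins, and *Mki67* and *Top2a* mark proliferating cells. They are 10 of the 54115 genes with a transcript in the data, and 8 of the 10 were among the 12524 genes with enough reads for a test.

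RNA was sequenced from the livers of 3 WT and 3 *Sirt7* KO mice, all male, 24 months old and fasted for 16 h before collection. WT and KO mice were littermates from crosses of heterozygous parents on a C57BL/6J background. *Sirt7* encodes SIRT7, a nuclear deacylase of the sirtuin family. Each library was made from 1 ng of total RNA. The comparison of the genotypes asks whether the level of these mRNAs differed in aged, fasted male liver when *Sirt7* was disrupted.

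p53 is kept scarce in resting cells by MDM2 and is stabilized when DNA is damaged or the cell is stressed. It then turns on *Cdkn1a*, whose product blocks CDKs and holds the cell before S phase, and *Mdm2* itself, which closes a feedback loop. In adult liver nearly all hepatocytes are out of the cycle, and in such cells a repressor complex bound to short promoter elements keeps genes of G2 and mitosis, such as *Mki67* and *Top2a*, silent.

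The libraries held between 9994860 and 13424776 reads on transcripts. Levels are given as CPM, the reads of a gene scaled to the size of its library by TMM, and differences as the log2 fold change of *Sirt7* KO over WT with its standard error (SE). *Sirt7* itself had a mean of 49.3 ± 5.19 CPM (SD, n = 3) in WT and 37.0 ± 7.34 CPM (SD, n = 3) in KO livers, and every KO liver lay below every WT liver. Reads of the gene were therefore still counted in KO livers. The deleted part of the gene is not given in the sources used here, so these reads do not tell how much intact mRNA was left. The log2 fold change of -0.41 (SE 0.18) did not pass the test (edgeR, Benjamini-Hochberg adjusted p = 0.42). In TPM, which scales reads to transcript length, *Sirt7* went the other way, with 27.3 to 34.4 TPM in WT and 34.7 to 68.0 TPM in KO livers. The 10 hepatocyte markers, among them albumin, were read at high levels in all livers, with sums of 53486 to 55209 CPM in WT and 57074 to 64868 CPM in KO livers. KO mouse 1 stood apart among the KO livers. Its rank correlation with the other KO livers was 0.95 and 0.952, against 0.973 between KO mouse 2 and KO mouse 3, and up to 0.961 with a WT liver. The lowest rank correlation of all pairs, 0.941, was between WT mouse 1 and KO mouse 2. With the other WT livers, WT mouse 1 had 0.963 and 0.962, against 0.969 between WT mouse 2 and WT mouse 3. Among the tested members, the estimates of *Cdkn1a*, *Ccnd1*, *Cdkn1b* and *Gadd45b* moved most without KO mouse 1, and they are given both ways. In whole tissue, fewer cells of a type and less RNA per cell cannot be told apart.

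None of the 8 tested members was called at an adjusted p under 0.05 with a fold change over 1.5, where the same rule called 1 of the 12524 genes, or 0.00798%, and 0 of them lower in KO livers (edgeR's quasi-likelihood test, Benjamini-Hochberg adjustment). By DESeq2, and by edgeR without a filter on low counts, 1 member passed that rule, *Gadd45b*, and by limma-voom none did. Of the 8, 4 had a higher and 4 a lower estimate in KO livers. *Gadd45b* was the only one with an unadjusted p under 0.05, a mark passed by 11.3% of all tested genes (4.78% lower and 6.54% higher in KO livers, and 7.39% with a fold change over 1.5 in either direction). It was also the only one whose 6 values did not overlap between genotypes, which held for 16.8% of all tested genes (8.09% lower and 8.74% higher). The other 7 had adjusted p-values between 0.71 and 0.97. The plot of CPM by liver shows all 10 genes.

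**Figure D1:**
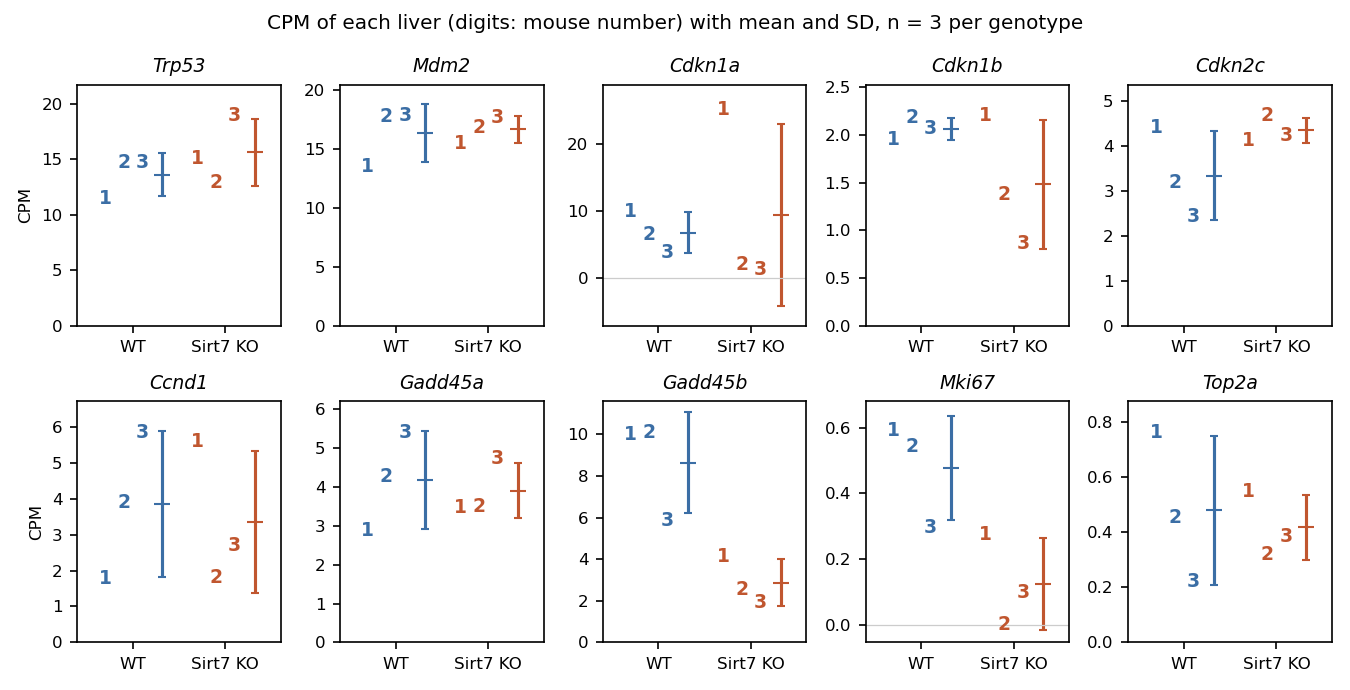
CPM (linear axis) of each of the 10 genes in the 3 WT livers (blue) and the 3 *Sirt7* KO livers (orange), where each digit is the number of the mouse and the bars are mean and SD. The genotypes are apart for *Gadd45b* (5.84 to 10.1 CPM in WT, 1.93 to 4.12 CPM in KO). They are also apart for *Mki67*, but its nearest livers hold only 4 reads (WT mouse 3) and 3 reads (KO mouse 1). For *Cdkn1a* KO mouse 1 lies above and KO mouse 2 and 3 below all WT livers.

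For neither gene of the central pair did the genotypes differ beyond the spread between livers. *Trp53* lies on chromosome 11 (GRCm38 69580359 to 69591873, plus strand). It had 11.4, 14.7 and 14.7 CPM in the WT livers and 15.0, 12.9 and 18.9 CPM in the KO livers. The ranges overlapped, with KO mouse 3 highest and WT mouse 1 lowest. The means were 13.6 ± 1.89 CPM (SD, n = 3) in WT and 15.6 ± 3.02 CPM (SD, n = 3) in KO, and the log2 fold change was 0.20 (SE 0.21, edgeR with Benjamini-Hochberg adjustment, adjusted p = 0.77). With the average transcript length of each liver as an offset, this estimate was -0.03 by edgeR and -0.02 by DESeq2, so its sign changed with this setting.

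The transcripts to which *Trp53* reads were assigned differed from mouse to mouse, not by genotype. *Trp53-203*, of 1771 bases, and *Trp53-201*, of 1772 bases, share their first 1771 bases, and differ by 1 base at the 3′ end. In each liver one of them took between 79.2% and 93.9% of the reads of the gene and the other took 0. *Trp53-203* was the one in WT mouse 2, KO mouse 2 and KO mouse 3, and *Trp53-201* was the one in WT mouse 1, WT mouse 3 and KO mouse 1. Of the 31-base words of *Trp53* transcripts, 10.2% also occur in transcripts of other genes, among them the pseudogene *Trp53-ps*.

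*Mdm2* lies on chromosome 10 (117688875 to 117710758, minus strand). It measured 13.5, 17.8 and 17.8 CPM in the WT livers and 15.5, 16.8 and 17.7 CPM in the KO livers. All KO values fell inside the WT range. The means of 16.4 ± 2.46 CPM (SD, n = 3) and 16.7 ± 1.13 CPM (SD, n = 3) gave a log2 fold change of 0.03 (SE 0.18, edgeR with Benjamini-Hochberg adjustment, adjusted p = 0.97). Its highest liver was 1.32 times its lowest, the narrowest spread of the 10 genes.

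*Cdkn1a*, on chromosome 17 (29090976 to 29100727, plus strand), is the best known gene that p53 turns on. Its upstream promoter is shown because it holds a p53 element that no other searched promoter of the 10 genes holds. The sequence covers chr17:29090879-29090978 of GRCm38.p6 (RefSeq, plus strand), positions -100 to -1 from the start site, with the element in capitals.
Cdkn1a promoter: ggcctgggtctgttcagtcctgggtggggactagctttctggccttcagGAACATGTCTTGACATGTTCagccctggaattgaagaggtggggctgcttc
The element begins at -51 and has both decamers of the p53 consensus next to each other, with at most 1 mismatch allowed on either strand. Of 32851 mouse promoters, searched over the 250 bases before the start, 19 held such a match (0.0578%). RefSeq promoters were found for 9 of the 10 genes, *Ccnd1* being the one without an entry. A match describes the letters only.

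*Cdkn1a* varied most among the tested members, with a highest liver 21.8 times the lowest. It had 9.91, 6.53 and 3.77 CPM in the WT livers, from 117, 72 and 51 reads. The KO livers had 25.2, 2.01 and 1.16 CPM, from 275, 19 and 12 reads. KO mouse 1 was 2.54 times the highest WT liver and 15.9 times the mean of the other two KO livers, while the lowest WT liver was 1.87 times the higher of KO mouse 2 and KO mouse 3. The means were 6.74 ± 3.07 CPM (SD, n = 3) in WT and 9.45 ± 13.6 CPM (SD, n = 3) in KO, and the log2 fold change was 0.50 (SE 0.93, edgeR with Benjamini-Hochberg adjustment, adjusted p = 0.89).

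The sign of the *Cdkn1a* estimate turned on KO mouse 1. Without this liver the log2 fold change was -2.08 (SE 0.51), with an adjusted p of 0.086 by the same edgeR test, so the gene was not called with it or without it. Leaving out any other single liver gave values between 0.22 and 1.02. Limma-voom, which works on log values, gave -0.57 over all 6 livers. Summed CPM of the 25 genes of G2 and mitosis with too few reads for a test was also highest in KO mouse 1, at 21.6 CPM, against 6.44 to 10.2 CPM in the other 5 livers. Kupffer cell markers summed to 241 CPM in KO mouse 1, 236 CPM in WT mouse 3 and 90.6 to 178 CPM elsewhere, and the part of either in the *Cdkn1a* value was not tested.

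Estimated reads of the *Cdkn1a* transcripts from both start sites were high in KO mouse 1. These estimates are the split that Salmon made among transcripts of the gene, not reads counted at either start site. The transcript from the upstream start, *Cdkn1a-202*, begins at 29090979, next to the element printed above, and *Cdkn1a-201* begins at 29093769. *Cdkn1a-202* held an estimated 51.8, 43.5 and 24.2 reads in WT and 139, 11 and 8.86 reads in KO livers. *Cdkn1a-201* held an estimated 48.8, 29.0 and 26.7 reads in WT and 120, 8.01 and 3.14 reads in KO livers. Each was highest in KO mouse 1 and lowest in KO mouse 3. The upstream transcript made up 44.5% to 60.0% of the reads of the gene in WT livers, 50.6% in KO mouse 1, 57.9% in KO mouse 2 and 73.9% in KO mouse 3, the last of these from 12 reads. Since 9.78% of the 31-base words of *Cdkn1a* also occur in transcripts of other genes, mainly AC167363.2 on the opposite strand, and no strand of the reads is stated, reads in that stretch cannot be told apart.

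**Figure D2:**
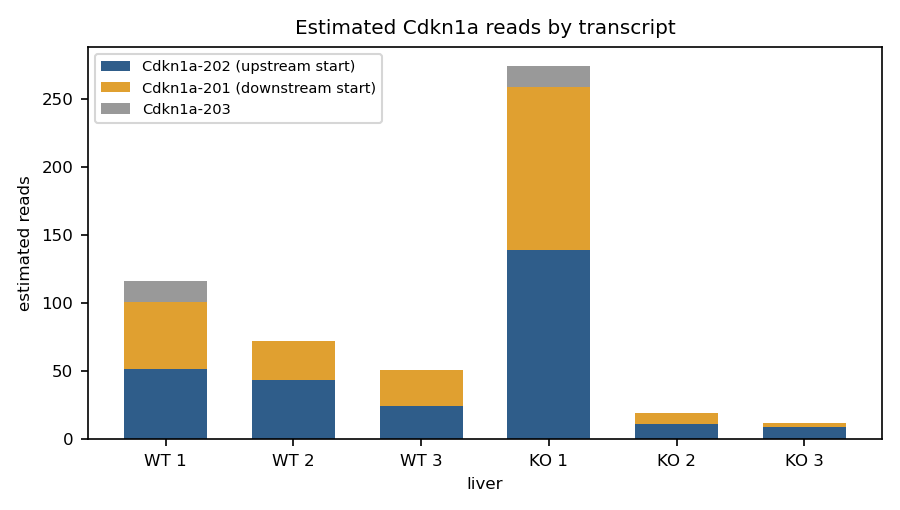
Estimated reads (linear axis, stacked bars, not scaled to library size) of the 3 *Cdkn1a* transcripts in each of the 6 livers. In KO mouse 1 both main transcripts, with 139 and 120 reads, exceed those of every other liver, and KO mouse 2 and KO mouse 3 hold fewer reads of both than any WT liver.

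Among tested genes with a mean of at least 20 CPM, 3 came closest to the profile of *Cdkn1a* over the 6 livers, by the root mean square difference of centred log2 values among 4473 genes searched. These were *Ugt1a7c*, a UDP-glucuronosyltransferase, at 0.62, the predicted gene *Gm10252* at 0.73, and *G0s2*, an inhibitor of triglyceride lipase, at 0.74. *Ugt1a7c* had 41.5, 23.8 and 48.7 CPM in WT and 91.6, 17.2 and 9.73 CPM in KO livers, so KO mouse 1 was above and the other KO livers were below all WT livers there too. Isoforms of the *Ugt1a* locus share exons, so reads of *Ugt1a7c* may be split among them.

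The other CDK inhibitors were weakly expressed. *Cdkn1b*, on chromosome 6 (134920401 to 134925513, plus strand), had 1.95, 2.18 and 2.07 CPM in WT and 2.20, 1.38 and 0.867 CPM in KO livers. KO mouse 1 was the highest of all 6 livers and the other two KO livers were the lowest, so the ranges overlapped through 1 liver. The means were 2.07 ± 0.115 CPM (SD, n = 3) in WT and 1.48 ± 0.671 CPM (SD, n = 3) in KO. The log2 fold change was -0.47 (SE 0.46, edgeR with Benjamini-Hochberg adjustment, adjusted p = 0.75), and these values rest on 9 to 28 reads per liver. Without KO mouse 1 the estimate was -0.88 (SE 0.51, adjusted p = 0.42 by the same edgeR test), and without KO mouse 3, the lowest liver, it was -0.20. It was 0.05 by edgeR and 0.06 by DESeq2 with transcript length offsets. The longer transcript *Cdkn1b-202* took all reads of the gene in WT mouse 2 and none in KO mouse 1 and KO mouse 3.

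*Cdkn2c*, on chromosome 4 (109660876 to 109667189, minus strand), had 4.40, 3.18 and 2.44 CPM in WT and 4.12, 4.66 and 4.24 CPM in KO livers. Only WT mouse 1 reached the KO range. The means of 3.34 ± 0.991 CPM (SD, n = 3) and 4.34 ± 0.285 CPM (SD, n = 3) gave a log2 fold change of 0.38 (SE 0.32, edgeR with Benjamini-Hochberg adjustment, adjusted p = 0.71). The estimate was 0.62 without WT mouse 1 and 0.20 without WT mouse 3. No 31-base word of *Cdkn2c* occurs in another gene. *Cdkn2a*, the marker of senescence that encodes p16 and ARF, had 0, 2 and 2 reads in WT and 0, 3 and 3 reads in KO livers, at or under the floor of 3 reads in all 6, so a difference was not detectable at this depth.

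*Ccnd1*, on chromosome 7 (144929931 to 144939925, minus strand), encodes the cyclin that carries growth signals to CDK4 and CDK6. Its values were 1.78, 3.90 and 5.84 CPM in WT and 5.59, 1.80 and 2.70 CPM in KO livers. Livers of both genotypes lay at each end of the range. The means were 3.84 ± 2.03 CPM (SD, n = 3) and 3.36 ± 1.98 CPM (SD, n = 3), and the log2 fold change was -0.19 (SE 0.53, edgeR with Benjamini-Hochberg adjustment, adjusted p = 0.93). Its estimate ran from -0.77 without KO mouse 1 to 0.25 without WT mouse 3, the same livers in which *Ccnd1* was highest and in which the summed Kupffer cell markers were highest (241 and 236 CPM), and whether these go together was not tested. The nearest profiles were those of *Nmrk1* (0.25), a nicotinamide riboside kinase, *Paqr7* (0.30) and *Pla2g6* (0.30), a phospholipase. Of the words of *Ccnd1*, 22.3% are shared with LTO1, an overlapping gene on the opposite strand.

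The stress genes *Gadd45a* and *Gadd45b* encode small proteins that bind kinases and cell cycle proteins. *Gadd45a* lies on chromosome 6 (67035096 to 67037457, minus strand). Its values were 2.88, 4.26 and 5.40 CPM in WT and 3.48, 3.50 and 4.72 CPM in KO livers. The KO values all lay within the WT range. The means of 4.18 ± 1.26 CPM (SD, n = 3) and 3.90 ± 0.712 CPM (SD, n = 3) gave a log2 fold change of -0.10 (SE 0.34, edgeR with Benjamini-Hochberg adjustment, adjusted p = 0.94). Of its words, 17.0% occur in *E230016M11Rik* on the opposite strand.

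*Gadd45b* lies on chromosome 10 (80930073 to 80932204, plus strand) and is known as a gene induced by NF-kB and TGF-beta signals and during liver regeneration. Its upstream sequence is shown because this gene had the largest estimate among the tested members. It covers chr10:80929891-80930010 of GRCm38.p6 (RefSeq, plus strand), positions -200 to -81, with an E-box and CCAAT boxes in capitals.
Gadd45b promoter: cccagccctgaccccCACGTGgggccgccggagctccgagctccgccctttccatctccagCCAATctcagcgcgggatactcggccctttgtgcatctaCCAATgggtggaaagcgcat
The E-box, searched as CACGTG, begins at -185, and CCAAT begins at -139 and at -100. In the same 250-base window, CACGTG occurred in 6.02% and CCAAT, on either strand, in 33.9% of the 32851 promoters, so neither is rare.

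*Gadd45b* had 9.99, 10.1 and 5.84 CPM in the WT livers, from 118, 111 and 79 reads. The KO livers had 4.12, 2.54 and 1.93 CPM, from 45, 24 and 20 reads. Every KO liver was below every WT liver, with KO mouse 1 nearest to the WT range. The means were 8.64 ± 2.42 CPM (SD, n = 3) in WT and 2.86 ± 1.13 CPM (SD, n = 3) in KO, a fitted 2.99-fold difference. Its log2 fold change of -1.58 (SE 0.36) did not pass the test (edgeR's quasi-likelihood test, Benjamini-Hochberg adjusted p = 0.17).

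The call of *Gadd45b* depended on the tool. DESeq2 gave an adjusted p of 0.0085 with transcript length offsets and 0.0105 without them, and called *Gadd45b* together with 242 and 258 genes in all (1.87% and 2.16% of those with an adjusted p, or 0.532% and 0.595% counting lower genes only). EdgeR without KO mouse 1 gave a log2 fold change of -1.94 and an adjusted p of 0.043, where it called 252 genes in all (1.95%, or 0.673% lower). Without a filter on low counts the adjusted p by edgeR was 0.00039, and 2.27% of genes were called (0.775% lower). In that fit *Cdkn1a*, the most variable tested member, had an SE of 0.28, against 0.93 with the filter. Its SE was thus smaller than the 0.34 of *Gadd45b*, so that fit gave little weight to the spread between livers. For *Gadd45b*, leaving out any liver other than KO mouse 1 gave log2 fold changes between -1.80 and -1.36. The adjusted p-values then lay between 0.24 and 0.46 by the same edgeR test with the filter. The estimate of *Gadd45b* was below 0 in all fits run. An exact two-sided permutation test of its 6 values gave p = 0.1, the smallest that 3 against 3 allows. No 31-base word of *Gadd45b* occurs in another gene, and *Gadd45b-201* took 74.6% to 100% of its reads in every liver.

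**Figure D3:**
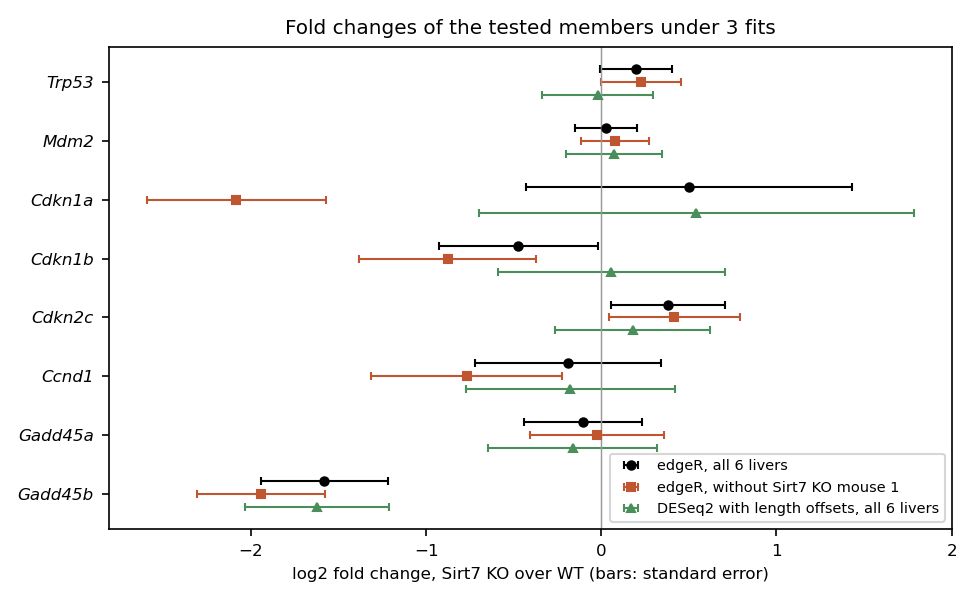
Log2 fold change (*Sirt7* KO over WT, bars are the SE) of the 8 tested members by edgeR on all 6 livers (black), by edgeR without KO mouse 1 (orange) and by DESeq2 with transcript length offsets (green). *Gadd45b* lies between -1.94 and -1.58 in the 3 fits, *Cdkn1a* moves from 0.50 to -2.08 when KO mouse 1 is left out, and *Trp53* and *Mdm2* stay within 0.23 of 0.

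*Mki67* and *Top2a*, the proliferation markers, had too few reads to be tested across genes. *Mki67*, on chromosome 7 (135689784 to 135716361, minus strand), encodes the Ki-67 protein that coats mitotic chromosomes, and *Top2a*, on chromosome 11 (98992943 to 99024189, minus strand), encodes the topoisomerase that untangles DNA before division. Their promoters are shown because both hold matches to the CHR and the CCAAT box, elements known from genes silenced in resting cells. Each motif was counted alone, and neither their spacing nor the share of promoters with both was computed. As for *Cdkn1a*, a match describes the letters only. The CHR, searched as TTTGAA, and the CCAAT box are in capitals and appear as TTCAAA and ATTGG where they lie on the other strand. The *Mki67* stretch is chr7:135716440-135716559 (minus strand, -180 to -61) and the *Top2a* stretch is chr11:99024200-99024429 (minus strand, -240 to -11), both from RefSeq on GRCm38.p6.
Mki67 promoter: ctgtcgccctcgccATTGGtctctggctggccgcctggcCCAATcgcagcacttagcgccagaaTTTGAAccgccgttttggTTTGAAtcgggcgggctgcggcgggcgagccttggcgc
Top2a promoter: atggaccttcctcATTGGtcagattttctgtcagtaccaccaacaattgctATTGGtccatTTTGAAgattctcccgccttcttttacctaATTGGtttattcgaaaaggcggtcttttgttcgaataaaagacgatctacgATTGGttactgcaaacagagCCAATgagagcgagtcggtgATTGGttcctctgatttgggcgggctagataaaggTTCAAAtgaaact
Each promoter had 2 TTTGAA matches, which 1.81% of the 32851 promoters had or exceeded, while 16.0% had at least 1. *Mki67* had 3 CCAAT boxes and *Top2a* had 6, where 2 or more occurred in 10.1% and 4 or more in 0.840% of promoters.

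The reads of *Mki67* numbered 7, 6 and 4 in WT and 3, 0 and 1 in KO livers, or 0.593, 0.544 and 0.296 CPM against 0.275, 0 and 0.0963 CPM. Every KO liver was below every WT liver, with WT mouse 3 and KO mouse 1 next to each other at 4 and 3 reads. Only 3 livers exceeded the floor of 3 reads, which corresponds to 0.222 to 0.318 CPM. Summed by genotype, 17 reads stood against 4, a ratio of KO over WT of 0.278 with an exact 95% interval of 0.0681 to 0.853, which covers counting error only. The exact two-sided permutation test over the livers gave p = 0.1, the smallest it can give. DESeq2 gave a log2 fold change of -1.89 (SE 1.55) and no adjusted p. Among all tested genes, 8.09% had every KO liver below every WT liver, and the share among genes with so few reads was not computed. *Plk1* and *Cdc25c*, other genes of G2 and mitosis removed by the filter, were higher in CPM in every KO liver. *Plk1* had 2, 0 and 4 reads in WT and 13, 3 and 6 reads in KO livers. *Cdc25c* had 6, 7 and 7 reads against 14, 6 and 8 reads. Others of that list overlapped, such as *Top2a*.

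*Top2a* had 9, 5 and 3 reads in WT and 6, 3 and 4 reads in KO livers, or 0.762, 0.454 and 0.222 CPM against 0.549, 0.318 and 0.385 CPM. The ranges overlapped. The 17 and 13 reads gave a ratio of 0.904 with an exact 95% interval of 0.404 to 1.98, and the exact two-sided permutation test gave p = 0.9. For these counts a difference in *Top2a* was not detectable at this depth.

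Set per length, the levels of the 10 genes spanned a wide range. By median TPM over the 6 livers *Trp53* was highest at 8.10 TPM, followed by *Mdm2* at 6.40 and *Gadd45a* at 5.27 TPM. *Gadd45b* followed at 4.64 TPM and *Cdkn1a* at 4.55 TPM, *Cdkn1a* ranging from 1.21 to 21.0 TPM. These medians pool both genotypes, which matters for *Gadd45b*, with a mean of 7.80 ± 1.46 TPM (SD, n = 3) in WT, above that of *Mdm2*, and 2.38 ± 0.617 TPM (SD, n = 3) in KO livers. Neighbours among these 5 were not apart, since each was above the next, and *Cdkn1a* above *Cdkn2c*, in 3 to 5 of the 6 livers. *Cdkn2c* at 2.56 TPM was above *Ccnd1* at 0.764 TPM in all 6 livers, and *Cdkn1b* at 0.566 TPM was above *Top2a* at 0.0870 TPM and *Top2a* above *Mki67* at 0.0233 TPM in all 6. *Ccnd1* exceeded *Cdkn1b* in 4 of 6 livers.

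The wider pathway was read from lists of known genes, which also hold some of the 10 genes, in the same edgeR fit, and none of the listed genes was called. Of 30 p53 target genes 27 were tested, and 16 were above 0 with a median log2 fold change of 0.06, beside a median of -0.01 over all tested genes. Unadjusted p-values under 0.05 were reached by 5 of the 27, in both directions, where 11.3% of all genes reached them. *Bbc3*, which encodes the apoptosis protein PUMA, had 4.40, 6.17 and 2.74 CPM in WT and 8.33, 8.58 and 7.03 CPM in KO livers, and its log2 fold change was 0.85 (SE 0.32). *Btg2*, an antiproliferative gene, had 5.84, 3.90 and 6.51 CPM in WT and 12.6, 9.01 and 8.48 CPM in KO livers, and its log2 fold change was 0.89 (SE 0.27). For both, all KO livers were above all WT livers. *Perp*, a p53 target at cell junctions, had a log2 fold change of -0.52 (SE 0.16), and *Ddb2*, which recognizes ultraviolet damage, one of -0.71 (SE 0.26), and all KO livers were below all WT livers for both. *Plk3*, a stress kinase, had a log2 fold change of -1.15 (SE 0.44), which was -0.77 without KO mouse 1, its lowest liver, and its ranges overlapped. The adjusted p-values of these 5 lay between 0.25 and 0.36 (edgeR, Benjamini-Hochberg). Over the whole list, values did not overlap for 2 of the 27 genes with KO higher and for 3 with KO lower. The lower ones include a gene whose unadjusted p was not under 0.05. Over all tested genes, 8.74% did not overlap with KO higher and 8.09% with KO lower. The median of the list was -0.10 without KO mouse 1 and -0.07 with total counts only, a scaling that moved the median of all genes to -0.11.

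Of 16 regulators of p53, such as the checkpoint kinases and *Mdm4*, 13 were tested with a median log2 fold change of 0.12. This median ranged from 0.018 to 0.15 with 1 liver left out and was 0.011 with total counts only. It was -0.020 over the regulators with a mean of at least 50 counts. *Hipk2*, a kinase of p53, was the one with an unadjusted p under 0.05, at -0.54 (SE 0.23, edgeR, Benjamini-Hochberg adjusted p = 0.42), and its ranges overlapped. Among the 7 CDK inhibitors 5 were tested, the 3 members with *Cdkn1c* and *Cdkn2d*, with a median log2 fold change of 0.16 that ranged from -0.88 without KO mouse 1 to 0.44 without WT mouse 1. *Cdkn1c*, which encodes p57, had 3.56, 2.99 and 1.48 CPM in WT and 0.733, 1.06 and 0.867 CPM in KO livers. All KO livers were below all WT livers, and the log2 fold change was -1.58 (SE 0.49, edgeR, Benjamini-Hochberg adjusted p = 0.27). This was the largest estimate of the 5 in size, and it did not pass the test.

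Of 10 G1 cyclins and CDKs, 8 of the 9 tested were below 0, where 49.3% of all tested genes were above 0. Their median log2 fold change was -0.22, and none had an unadjusted p under 0.05. This median was -0.076 without WT mouse 3, -0.078 without KO mouse 2 and -0.33 without KO mouse 1. For 2 of the 9, *Ccne1* and *Cdk4*, all KO livers were below all WT livers, which held for 8.09% of all tested genes. *Ccne1* was at -1.64 (SE 0.74), from 1 to 24 reads per liver, and *Cdk4* was at -0.30 (SE 0.14). Their adjusted p-values were 0.45 and 0.46 in that order (edgeR, Benjamini-Hochberg). Of 17 genes of the RB and E2F families 14 were tested, 6 above and 8 below 0 with a median of -0.07 (-0.15 to 0.025 with 1 liver left out, and 0.055 by edgeR with length offsets) and none with an unadjusted p under 0.05. In the list of the GADD45 family and its partners, all 5 were tested and *Gadd45b* alone had such a p. Of 22 S phase genes 18 were tested with a median of 0.15 (0.045 to 0.23 with 1 liver left out). There *Ung*, a uracil glycosylase, was at -0.84 (SE 0.34) with all KO livers below all WT livers, and *Rrm1*, a ribonucleotide reductase subunit, was at 0.57 (SE 0.25) with all KO livers above, and both had adjusted p-values of 0.39 and 0.43 in that order (edgeR, Benjamini-Hochberg). Of 12 senescence genes 7 were tested, 6 of them above 0 with a median of 0.09 (0.065 to 0.26 with 1 liver left out, and -0.013 with total counts only) and none with an unadjusted p under 0.05.

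Genes of G2 and mitosis, a list that holds *Mki67* and *Top2a*, had few reads. Of 28, only 3 passed the filter on low counts. The other 25 had at most 28 reads in any liver, and 77 of their 150 values, or 51.3%, were at 3 reads or fewer. Their reads summed to 120, 71 and 96 in WT and 236, 65 and 100 in KO livers, so KO mouse 1 stood above the rest and the genotypes overlapped. *Wee1*, which encodes the kinase that restrains CDK1 and is also known as a gene of the circadian clock, had 2.46, 12.2 and 10.4 CPM in WT and 3.11, 1.59 and 1.35 CPM in KO livers. WT mouse 1 lay among the KO livers, and the log2 fold change was -2.04 (SE 0.59, edgeR, Benjamini-Hochberg adjusted p = 0.24). DESeq2 called *Wee1*, with an adjusted p of 0.0398 with transcript length offsets and 0.0142 without them.

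**Figure D4:**
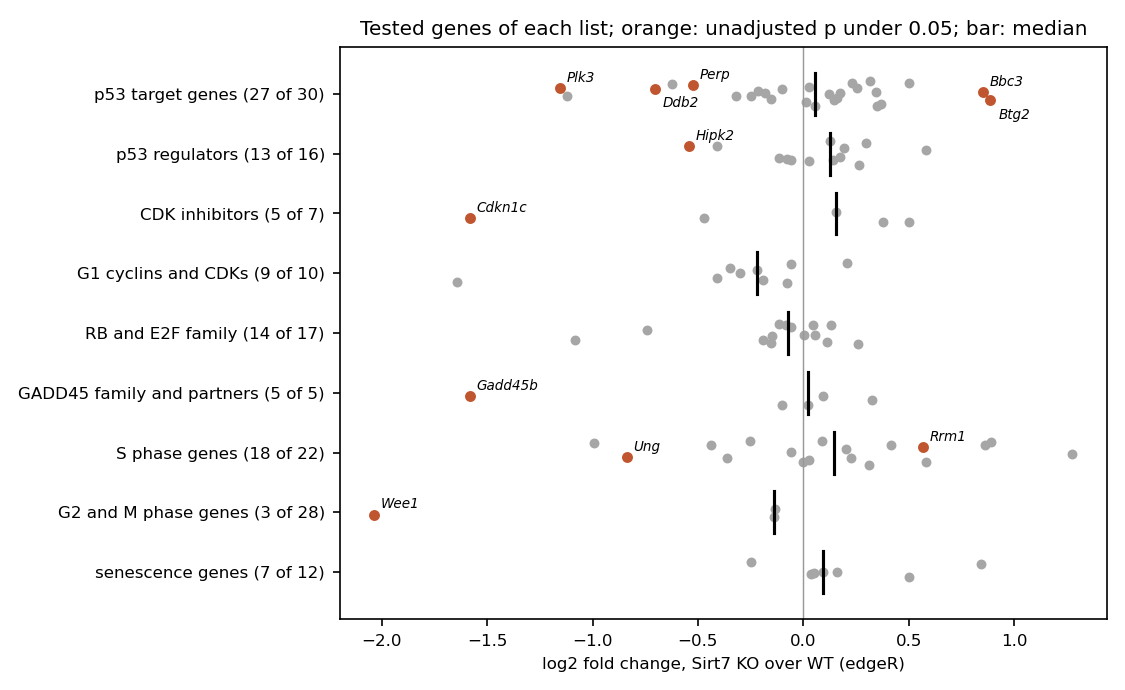
Log2 fold change (*Sirt7* KO over WT, edgeR) of each tested gene (points) in 9 lists, with tested and listed numbers beside each name, the median of a list as a black bar and genes with an unadjusted p under 0.05 in orange with their names. Medians lie between -0.22 and 0.16, and the orange points lie on both sides of 0.

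Markers of other cell types were counted beside these values. Of the 10 Kupffer cell and macrophage markers 8 had a log2 fold change above 0, as did 49.3% of all tested genes. Their values ran from -2.47 to 0.69 with a median of 0.28, and their sums overlapped between genotypes. Erythroid markers summed to 547, 452 and 374 CPM in WT and 826, 446 and 915 CPM in KO livers, with all 5 tested markers above 0. Of these 5, 1 had an unadjusted p under 0.05, and the smallest adjusted p was 0.17 (edgeR, Benjamini-Hochberg). All KO livers were above all WT livers for 1 of the 5. Lymphocyte and plasma cell markers summed to 9.07 to 14.4 CPM in WT and 6.04 to 11.3 CPM in KO livers, and neutrophil markers to 1.09 to 4.32 and 1.91 to 7.33 CPM. Endothelial markers summed to 70.8 to 92.1 CPM in WT and 79.9 to 115 CPM in KO livers, stellate cell and fibroblast markers to 173 to 215 and 142 to 224 CPM, and cholangiocyte markers to 47.3 to 72.7 and 53.4 to 71.0 CPM. Above 0 were 7 of 8 endothelial, 5 of 8 stellate cell and fibroblast and 2 of 4 tested cholangiocyte markers. The same held for 1 of 3 tested lymphocyte and plasma cell markers and for both tested neutrophil markers. None of the sums of these other cell types separated the genotypes as *Gadd45b* did. The summed hepatocyte markers given earlier were higher in every KO liver than in every WT liver. Of the 10 hepatocyte markers, 5 had a log2 fold change above 0 and 5 below. The part of any of these sums in the difference of *Gadd45b* was not tested.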

How the data were processed

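Liver samples of 24-month-old male mice, 3 WT and 3 *Sirt7* KO, all fasted for 16 h, were grouped by the genotype in their labels. According to the methods, the authors trimmed single-end reads with Trim Galore 0.6.5 and quantified them on the mouse transcriptome of GRCm38 with Salmon 1.2.1. The authors deposited, mouse by mouse, an estimated count for each transcript, without normalization, and TPM, which the authors' Salmon run scaled to effective length and to a fixed total. The annotation release and the strand of the reads are not given in the sources used here.

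Estimated counts were added up by gene with GENCODE M21 and rounded. Of 140992 transcripts, 139172 matched with the same version and 619 with another, and 1201 without a gene (0.303% to 0.492% of reads) were left out. TPM was summed per gene for levels between genes and, with transcript lengths, for length offsets. Within a genotype the livers differed by more than sampling noise (chi-square per gene of at least 17.5), so each counted as 1 sample. The labels call them biological replicates.

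Differences were tested with edgeR 4.0.16 (R 4.3.3) by the quasi-likelihood test with TMM scaling and filterByExpr (minimum count 10), which left 12524 genes and a biological coefficient of variation of 26.4%. P-values were adjusted by Benjamini-Hochberg over all tested genes, and a call needed an adjusted p under 0.05 and a fold change over 1.5. Genes removed by the filter were tested by an exact permutation test of log2(CPM + 0.5). DESeq2 1.42.0, limma-voom (limma 3.58.1), other scalings, filters, call rules, length offsets, a replicate block and leaving out each liver were the alternatives. Reads carry no molecular identifiers, so intervals and floors (3 reads) cover counting error only.

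The 10 genes, the gene lists and the tests were chosen with earlier results of these data known. Named were the 10 genes, *Sirt7*, *Cdkn2a*, the genes of a list with an unadjusted p under 0.05 (at most 6 per list), and the 3 nearest profiles of *Cdkn1a* and of *Ccnd1*. *Plk1*, *Cdc25c*, *Ccne1* and *Cdk4* were named after the values were seen, because their values did not overlap between genotypes. Promoters (RefSeq, GRCm38.p6, 250 bases before the start) and motifs were chosen after the values were seen. Python 3.11.15 was used for tables and figures.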

Additional observations from a re-analysis of the deposited data

How the results depend on the processing

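The number of genes called, 1 by edgeR, was 2 with total counts only, 2 with length offsets, 2 by limma-voom, 633 without a filter on low counts, 258 by DESeq2 without and 242 with length offsets, 0 to 252 with 1 liver left out, and 925 at an unadjusted p under 0.05 with the same fold change. The 252 came without KO mouse 1. Among the 10 genes, 0 calls became 1 without the filter, by both DESeq2 fits and at the unadjusted p, and 0 to 1 with 1 liver left out, and *Gadd45b* was the gene in each case. Its adjusted p ranged from 0.00039 without the filter to 0.46. Among pathway genes, 0 calls became 3 without the filter (*Gadd45b*, *Plk3* and *Wee1*), 2 and 2 by DESeq2 (*Gadd45b* and *Wee1*), and 0 to 1 with 1 liver left out.

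Of the 8 tested members, log2 fold changes reversed for *Trp53* with length offsets (-0.021 by DESeq2, -0.028 by edgeR), *Mdm2* with total counts only (-0.075), *Cdkn1a* by limma-voom (-0.57) and *Cdkn1b* with length offsets (0.059 by DESeq2, 0.051 by edgeR). With 1 liver left out the range was -0.10 to 0.095 for *Mdm2*, -2.08 to 1.02 for *Cdkn1a*, -0.88 to -0.20 for *Cdkn1b*, -0.77 to 0.25 for *Ccnd1* and -0.32 to 0.13 for *Gadd45a*. The cause was not tested, except that the lowest *Cdkn1a* value comes from leaving out KO mouse 1, its highest liver. Over all alternatives, 13 of the values of the 8 genes reversed, 107 kept their direction without a call and 4, all of *Gadd45b*, kept it with a call. Total counts only moved the median of all genes from -0.01 to -0.11.

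Deviations of mice that share a number had correlations of 0.0652, 0.08 and -0.0437. Mice with different numbers were not compared, so this check cannot decide whether the numbers pair the samples. The labels name no pairing, and the main test used none. With the replicate block edgeR called 41 genes, *Gadd45b* had an adjusted p of 0.099 and *Cdkn1a* a log2 fold change of -0.48.

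Depth limits *Mki67*, *Top2a*, *Cdkn2a* and most genes of G2 and mitosis. A mean of at least 50 counts left *Ccnd1*, *Cdkn1b*, *Cdkn2c* and *Gadd45a* untested.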
